A study of Bos taurus with 9 samples.

Results

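The 9 genes described here encode the AP-1, EGR1 and MYC transcription factors: the FOS family (FOS, FOSB, FOSL1 and FOSL2), the JUN family (JUN, JUNB and JUND), EGR1 and MYC. They were taken by symbol from the 20679 genes of the deposited count and TPM tables, and all 9 were found. The study cultured bovine uterine gland fragments, labelled as epithelial cells, in 3D for 5 days in Matrigel, a basement membrane extract, and sequenced bulk RNA from 9 libraries. Without EGF the fragments formed cysts (CYST, 3 libraries), with EGF they formed uterine gland-like (UG-LIKE) structures in Matrigel alone (MAT, 3 libraries), and a further set of UG-LIKE structures was grown with EGF in Matrigel that held type I collagen (MAT + COL, 3 libraries). All groups shared DMEM/F12 medium with bovine serum albumin, ascorbic acid, transferrin, sodium selenite and insulin, itself a growth-promoting hormone. Per the study's methods, the glands came from uteri collected at an abattoir, selected at estrous stage III, and were released by collagenase digestion. The labels name neither the animals behind each library, their age, nor a dose of EGF or collagen I. The study's methods do give doses of EGF and collagen I.

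The factors are the nuclear end of growth factor signalling. Binding of EGF to its receptor activates the RAS, RAF, MEK and ERK kinases, and ERK phosphorylates ternary complex factors that sit with SRF on the promoters of FOS and EGR1, whose transcripts appear within minutes and normally fall within hours. FOS family proteins cannot dimerise with one another and pair with JUN family proteins to form AP-1, which binds promoters of genes for matrix proteases, adhesion molecules and cell cycle regulators. EGR1 is a zinc finger factor held in check by the NAB corepressors, and MYC pairs with MAX to drive ribosome production, metabolism and entry into the cell cycle. The libraries were made on day 5, and the first hours after EGF was added were not analysed here. Per the study's methods, the culture medium was replaced repeatedly during the culture. The time from the last change to harvest is not given in the sources used here.

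The gene models set how the levels can be read. Coordinates are those of the genome build ARS-UCD2.0, and the RefSeq table of the same assembly gave gene spans without exons or UTRs. FOS (ENSBTAG00000004322) spans chromosome 10, 86488915 to 86492372, FOSL1 (ENSBTAG00000006194) spans chromosome 29, 44006997 to 44013726, and FOSL2 (ENSBTAG00000023929) spans chromosome 11, 71340649 to 71360069. Chromosome 7 carries JUND (ENSBTAG00000052791) at 4911852 to 4917462, JUNB (ENSBTAG00000012046) at 12736005 to 12738568, and EGR1 (ENSBTAG00000010069) at 49826449 to 49830278. FOSB (ENSBTAG00000008182) lies on chromosome 18, 53074714 to 53081288, JUN (ENSBTAG00000068635) on chromosome 3, 87264985 to 87283343, and MYC (ENSBTAG00000008409) on chromosome 14, 12653173 to 12658366. The ratio of counts to TPM gives the transcript lengths that the authors' program used, but only relative to one another. They were put in nucleotides by setting the length of JUND to the whole span of its gene model, 5611 bases. On that scale 154 of 11955 genes had a length within 0.1% of their span, and 0 exceeded it by more. The length so set for JUND was 3.20 times the RefSeq span of 1753 bases. For JUN it was 5979 nucleotides, 2.92 times the RefSeq span of 2048 bases, whereas for EGR1 it was 3139 nucleotides, 1.10 times the RefSeq span. For JUNB it was 2564 nucleotides, 1.41 times the RefSeq span of 1820 bases. TPM divides by this length, so the TPM of JUN, JUND and JUNB relative to the other genes depends on these longer models. Whether reads from outside the RefSeq spans entered their counts, and so their fold changes, was not tested. The strand setting of the counting is not given in the sources used here, so reads from antisense transcripts cannot be told apart from those of the genes.

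Total counts ranged from 8424028 to 16829884 in CYST, from 6568968 to 17936445 in MAT and from 16665013 to 17948600 in MAT + COL. The epithelial marker list (10 genes, among them EPCAM, CDH1 and KRT8) was above 1 TPM for 10 of 10 genes in every library, which goes with the label. Its summed TPM was 20271 to 22684 in CYST, 32013 to 49450 in MAT and 32614 to 43824 in MAT + COL. The 10 fibroblast and stroma markers summed to 2023 to 4567 TPM in CYST, 756 to 3003 in MAT and 1905 to 3506 in MAT + COL, with HAND2 at 0 in all MAT libraries. The 6 smooth muscle and pericyte markers summed to 150 to 189 TPM in CYST, 40.8 to 89.5 in MAT and 74.5 to 96.7 in MAT + COL. The 7 endothelial markers stayed between 8.68 and 46.7 TPM in sum over all libraries, and the 10 immune markers between 22.8 and 48.4, with the B cell marker CD79A at 0 throughout. CD14 made up most of each immune sum. The part of other cell types in the results below was not tested. In bulk RNA, fewer cells of a type and less RNA per cell cannot be told apart.

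FOS was the most abundant member in every group, and FOSB was close to absent. Over the 9 libraries, FOS averaged 832 TPM and ranked at the 98.9th to 99.6th percentile of all genes in each library. EGR1 followed with a mean of 225 TPM (102.9 to 351), then JUNB with 109 (56.5 to 191) and MYC with 102 (77.8 to 122). FOSL2 averaged 34.4 TPM, JUN 18.1, FOSL1 7.83, JUND 5.51 and FOSB 0.232. The ranges of FOS and EGR1 did not overlap, nor did those of MYC and FOSL2 or of JUND and FOSB. Those of EGR1, JUNB and MYC overlapped, as did those of JUN and FOSL2 and those of JUN, FOSL1 and JUND, so their order was not firm. The places of JUN, JUNB and JUND in this order depend on the gene models described above.

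**Figure D1:**
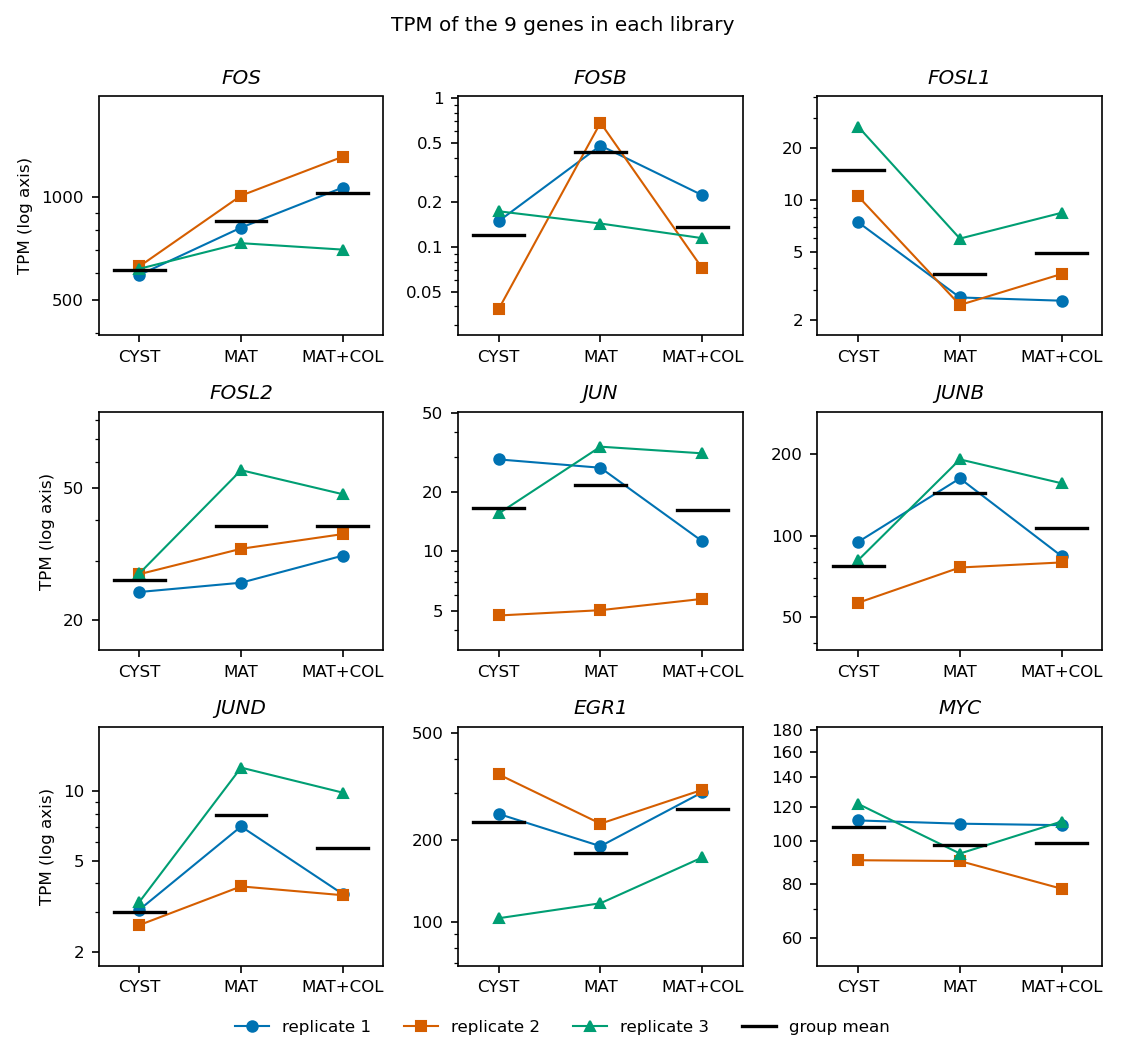
TPM of the 9 genes in each library on log axes, by culture condition, with 1 symbol per replicate number joined by a line and a black bar at the group mean (n = 3). In TPM, FOSL1 and MYC lay lower in MAT than in the same-numbered CYST library in 3 of 3 pairs (24.7% of all genes did). FOS, FOSL2, JUNB and JUND lay higher in 3 of 3 pairs (25.1% of all genes did). For MYC, MAT was at 0.983, 0.996 and 0.770 of the same-numbered CYST library in TPM. On TMM-normalized log2 CPM, MYC was instead higher in MAT in pairs 1 and 2, and lower in pair 3.

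The first question was whether the factors differed between UG-LIKE structures and cysts, that is with and without EGF. The test was edgeR's quasi-likelihood test on the counts, with Benjamini-Hochberg adjustment over the 12074 genes that passed its filter on low counts. A gene was called when its adjusted p was below 0.05, and counted as a DEG when it also changed more than 2-fold with over 1 TPM in each of the 6 libraries. 8 of the 9 genes were tested, and FOSB did not pass the filter. None of the 8 was called (background 1.79% of genes called, 216 of 12074). FOSL1 and JUND had an unadjusted p under 0.05, as had 20.7% of all genes. Each group holds replicates 1 to 3 by its labels. Libraries with the same number deviated together across genes, so a second fit took that number as a block. With the block, 3 of the 8 were called against 10.6% of genes (1277 of 12074): FOSL1 was lower, as were 5.67% of genes, and JUNB and JUND were higher, as were 4.9%. FOSL1 and JUND were then DEGs, as were 6.01% of genes.

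FOSL1, which encodes the FRA-1 protein, showed the largest difference of the set. In CYST its level was 7.42, 10.5 and 26.8 TPM in replicates 1 to 3, in MAT 2.70, 2.44 and 5.95 TPM, and in MAT + COL 2.59, 3.70 and 8.42 TPM. The CYST values all lay above the MAT values, as for 11.8% of all tested genes, and CYST replicate 3 stood well above the rest. MAT was at 0.364, 0.232 and 0.223 of the same-numbered CYST library. The means were 14.9 ± 10.4 TPM in CYST and 3.70 ± 1.96 TPM in MAT (SD, n = 3). The counts behind these levels were modest, at 60 to 279 reads per CYST library and 17 to 75 per MAT library. Without the block the Log2FC was -2.08 (SE 0.66, 95% interval -3.61 to -0.56, edgeR adjusted p = 0.131), and with the block it was -1.96 (SE 0.34, 95% interval -2.75 to -1.16, edgeR adjusted p = 0.0173). Leaving out CYST replicate 3, the highest library, brought the unblocked Log2FC to -1.16 (edgeR adjusted p = 0.290).

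FOS itself, the founding FOS family member, was higher in MAT than in CYST in 3 of 3 numbered pairs, by 1.38, 1.61 and 1.19 times on the TPM scale. Over all tested genes, 25.1% were higher in 3 of 3 pairs and 24.7% lower. Its level was 593, 628 and 618 TPM in CYST and 816, 1012 and 734 TPM in MAT, and the groups did not overlap. Over all tested genes, 11.9% had MAT libraries that all lay above the CYST libraries in TPM, and 11.8% all below. The Log2FC was 0.45 (SE 0.20, edgeR adjusted p = 0.242) and the same with the block (SE 0.19, edgeR adjusted p = 0.169), so the difference did not pass either test. CYST was the tightest group of any member, with a coefficient of variation of 2.95%. This narrow range belongs to the TPM scale: on TMM-normalized log2 CPM the CYST libraries were at 9.08, 9.12 and 9.44, and the iron storage gene FTH1 took 12.0% of the TPM of CYST replicate 3.

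FOSL2, encoding FRA-2, was at 24.3, 27.5 and 27.6 TPM in CYST and at 25.9, 32.8 and 56.5 TPM in MAT. The groups overlapped, and MAT replicate 3 alone lay far above the CYST range. The Log2FC was 0.53 (SE 0.33, edgeR adjusted p = 0.408) and 0.45 with the block (SE 0.21, edgeR adjusted p = 0.205). FOSB was counted 2, 1 and 3 times in CYST, 5, 19 and 3 times in MAT, and 6, 2 and 3 times in MAT + COL. This was 0.0385 to 0.174 TPM in CYST and 0.144 to 0.685 TPM in MAT, and no fold change is given because the CYST libraries were at or under 3 reads.

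Of the JUN family, JUNB and JUND were called higher in MAT with the block, and JUN was not called. JUNB, which often restrains JUN-driven proliferation, was at 94.9, 56.5 and 81.2 TPM in CYST and at 163, 76.3 and 191 TPM in MAT. The groups overlapped, since MAT replicate 2 lay within the CYST range, but within the numbered pairs MAT was higher by 1.72, 1.35 and 2.36 times. Without the block the Log2FC was 0.87 (SE 0.38, edgeR adjusted p = 0.245), and with it 0.80 (SE 0.17, edgeR adjusted p = 0.0307). JUND, the JUN family member often expressed in resting cells, was at 3.06, 2.63 and 3.31 TPM in CYST. In MAT it was at 7.04, 3.87 and 12.7 TPM, higher without overlap, as were 11.9% of all tested genes. Its Log2FC was 1.37 (SE 0.47, edgeR adjusted p = 0.152), and 1.22 with the block (SE 0.31, edgeR adjusted p = 0.0463). MAT replicate 3 was the highest library, and without it the unblocked Log2FC was 0.80 (edgeR adjusted p = 0.354).

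JUN, the founding JUN family member, was at 29.1, 4.75 and 15.5 TPM in CYST, at 26.4, 5.06 and 33.7 TPM in MAT, and at 11.3, 5.76 and 31.2 TPM in MAT + COL. Replicate 2 was the lowest library in every condition, and the groups overlapped throughout. The Log2FC of MAT relative to CYST was 0.39 with a 95% interval from -1.39 to 2.16 (edgeR adjusted p = 0.824), an interval wide enough to hold differences of over 2-fold in both directions. With the block it narrowed to -0.20 to 0.89 around 0.35 (edgeR adjusted p = 0.381).

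EGR1 and MYC were not called under either test. EGR1 was at 251, 351 and 102.9 TPM in CYST and at 190, 231 and 117 TPM in MAT, so the groups overlapped. Replicate 3 was the lowest in each group, and MAT was lower than CYST in pairs 1 and 2 and higher in pair 3. The Log2FC was -0.35 (SE 0.37, edgeR adjusted p = 0.650), and -0.29 with the block (95% interval -0.69 to 0.11, edgeR adjusted p = 0.322). MYC was at 111, 90.5 and 122 TPM in CYST and at 110, 90.1 and 93.7 TPM in MAT. It was the steadiest of the 9 genes, as its highest library was 1.56 times its lowest. The MYC Log2FC was -0.18 (95% interval -0.70 to 0.34, edgeR adjusted p = 0.707), and -0.15 with the block (95% interval -0.58 to 0.29, edgeR adjusted p = 0.657).

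The 3 calls made with the block rested on few libraries. When both libraries of a replicate number were left out in turn, a check added after the values were seen, 0, 1 and 2 of the 8 genes were called without replicates 1, 2 and 3. FOSL1 kept a Log2FC between -2.13 and -1.72 (edgeR adjusted p 0.0385 to 0.0961), JUNB between 0.69 and 0.93 (0.0308 to 0.174) and JUND between 0.95 and 1.4991 (0.0504 to 0.205). Without replicate 3, FOS was called with a Log2FC of 0.65 (edgeR adjusted p = 0.0347). Beside these results, the summed TPM of the smooth muscle list was lower in MAT without overlap, whereas the sums of the stroma list overlapped. With the block 1 of 9 tested stroma markers (DCN, 11.1%) and 1 of 6 smooth muscle markers (TAGLN, 16.7%) were called lower. Over all genes 10.6% were called, 5.67% of them lower in MAT as a share of all tested. DCN and TAGLN were named after their values were seen, and 9 of 9 tested stroma markers had a negative Log2FC. Over all 12074 tested genes, 6137 had a positive Log2FC.

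**Figure D2:**
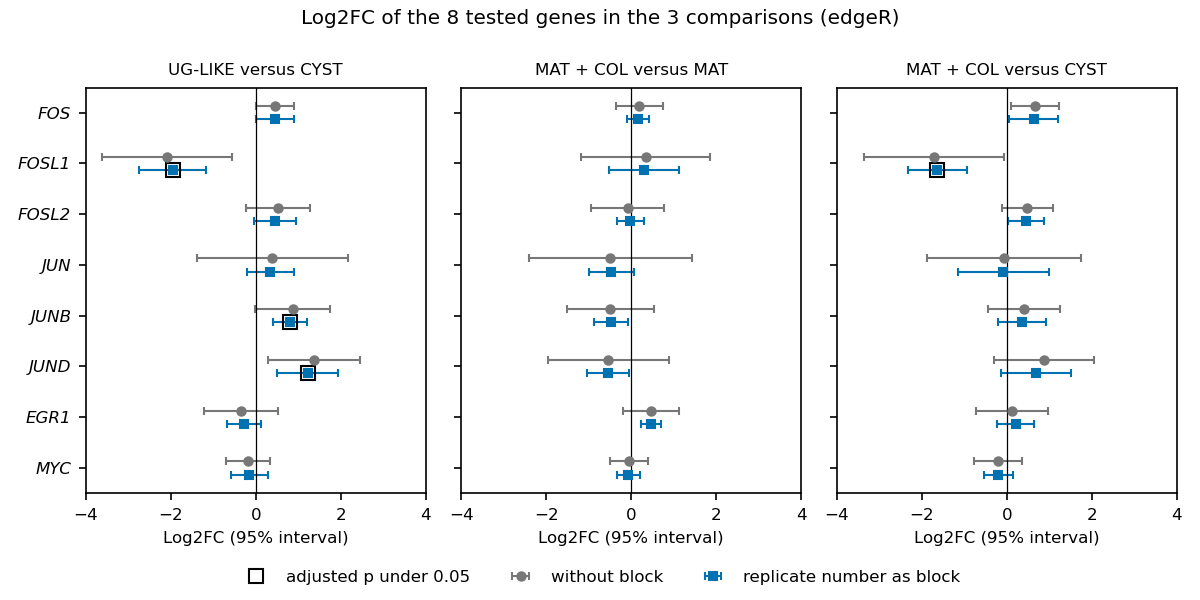
Log2FC of the 8 tested genes in the 3 comparisons by edgeR, with 95% intervals, without a block (grey circles) and with the replicate number as a block (blue squares). Boxes mark an adjusted p below 0.05, which only blocked values reached: FOSL1, JUNB and JUND in UG-LIKE versus CYST, where UG-LIKE is the MAT group, and FOSL1 in MAT + COL versus CYST.

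The next question was whether type I collagen altered the factors once EGF was present. None of the 8 tested genes was called between MAT + COL and MAT by either test (background 0% of 12470 genes with and without the block). Without the block none of the 8 had an unadjusted p under 0.05, against 0.409% of genes, and with it EGR1, JUNB and JUND had one, against 4.96%. EGR1 was at 302, 308 and 173 TPM in MAT + COL, and was higher than in MAT in 3 of 3 numbered pairs, by 1.58, 1.34 and 1.48 times. Its Log2FC was 0.46 (SE 0.28) without the block and 0.47 (SE 0.11) with it, and the edgeR adjusted p was 1.00 and 0.955. Over all tested genes, 20.4% were higher in MAT + COL in 3 of 3 pairs and 7.95% lower. No member had groups without overlap here, against 3.57% of genes.

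JUNB was at 84.1, 79.7 and 156 TPM in MAT + COL and JUND at 3.58, 3.54 and 9.86 TPM, and both overlapped with MAT. For JUND all 3 pairs were lower with collagen I, at 0.509, 0.916 and 0.779 of MAT, whereas JUNB in pair 2 was at 1.04 of MAT. The blocked Log2FC was -0.47 for JUNB (95% interval -0.87 to -0.07) and -0.55 for JUND (95% interval -1.05 to -0.06), with an edgeR adjusted p of 0.955 for both. FOS reached 1068, 1315 and 703 TPM in MAT + COL and overlapped with MAT, with a blocked Log2FC of 0.16 (95% interval -0.11 to 0.43, edgeR adjusted p = 0.955). FOSL2 was at 31.2, 36.3 and 47.8 TPM and MYC at 109, 77.8 and 111 TPM, and both overlapped with MAT. Their blocked intervals were -0.34 to 0.30 for FOSL2 and -0.35 to 0.21 for MYC. The interval of FOSL1 was wider, from -0.53 to 1.12, at 42 to 133 reads per MAT + COL library.

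Comparing MAT + COL with CYST, which combines EGF with collagen I and shares the CYST libraries with the first comparison, gave 0 of 8 called without the block (background 1.49% of 12509 genes) and 1 of 8 with it (background 5.26%). The gene called was FOSL1, with a Log2FC of -1.71 (SE 0.70, edgeR adjusted p = 0.216) and -1.63 with the block (SE 0.29, edgeR adjusted p = 0.0373). Its MAT + COL libraries were at 0.349, 0.353 and 0.315 of the same-numbered CYST library. Because CYST replicate 1 was at 7.42 TPM and MAT + COL replicate 3 at 8.42 TPM, the groups overlapped even though MAT + COL was lower in 3 of 3 pairs, as for 19.9% of genes. Without CYST replicate 3 the unblocked Log2FC was -0.79 (edgeR adjusted p = 0.497). Leaving out a replicate number from the blocked test gave 0, 0 and 2 called genes without replicates 1, 2 and 3, and the second gene without replicate 3 was FOS, with a Log2FC of 0.95 (edgeR adjusted p = 0.00986).

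FOS, FOSL2 and JUND had MAT + COL libraries that all lay above the CYST libraries, as did 14.3% of genes, but none was called with all libraries. For FOS the Log2FC was 0.66 (SE 0.24, edgeR adjusted p = 0.167), and 0.64 with the block (SE 0.24, edgeR adjusted p = 0.155). For JUND it was 0.87 (SE 0.50, edgeR adjusted p = 0.364), and 0.68 with the block (edgeR adjusted p = 0.260). JUND replicates 1 and 2 with collagen I were 1.17 and 1.35 times the CYST library and replicate 3 was 2.98 times. FOSL2 gave 0.48 (SE 0.26, edgeR adjusted p = 0.326) and 0.45 with the block (edgeR adjusted p = 0.164). JUNB, JUN, EGR1 and MYC overlapped with CYST, and their edgeR adjusted p lay between 0.374 and 0.972 over both tests.

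The makeup of each family was dominated by 1 gene in every library. FOS held 91.9 to 94.9% of the summed TPM of the FOS family in CYST, 92.1 to 96.6% in MAT and 92.6 to 97.04% in MAT + COL. The share of FOSL1 was 1.19 to 3.98% in CYST, 0.233 to 0.747% in MAT and 0.235 to 1.11% in MAT + COL, so CYST and MAT shares did not overlap. FOSL2 held 2.68 to 7.09% over all libraries. The summed FOS family was at 625 to 673 TPM in CYST, 797 to 1048 in MAT and 760 to 1355 in MAT + COL. JUNB held 74.7 to 89.5% of the summed TPM of the JUN family, and these shares depend on the longer gene models of JUN, JUNB and JUND. JUN held 7.44 to 22.9% in CYST, 5.93 to 14.2% in MAT and 6.48 to 15.8% in MAT + COL. FOS and JUNB thus had the highest deposited TPM of their families in all 9 libraries.

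**Figure D3:**
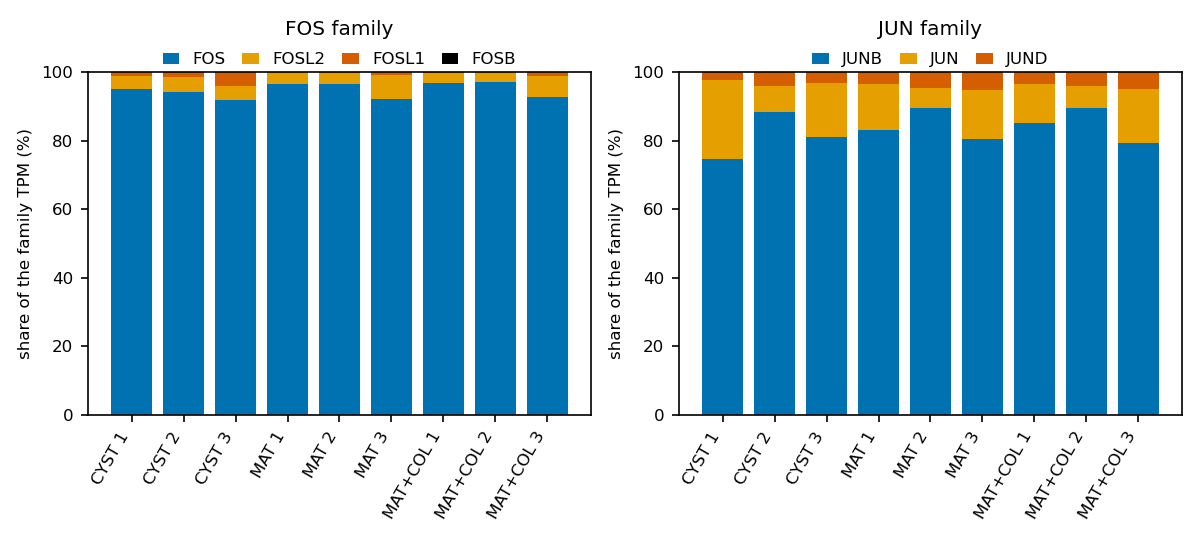
Share of each gene in the summed TPM of the FOS family and of the JUN family in each library (%), as stacked bars from 0 to 100. FOS fills over 91% of the FOS family and JUNB over 74% of the JUN family in every library, and FOSB is too small to be seen.

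The replicate number accounted for more of the variation than the culture condition in 6 of the 8 tested genes. The sum of squares of log2 CPM over the 9 libraries was split into condition, replicate number and remainder, as a description. The replicate number took 83.8% of it for JUN, 77.3% for EGR1, 72.1% for MYC, 64.9% for FOSL2, 55.3% for JUNB and 49.8% for JUND. Condition took more than the number for FOS (58.9% against 12.4%) and FOSL1 (52.2% against 45.4%). The mean over 12858 genes was 34.95% for condition and 35.8% for the number. For how many of all genes the number took more than condition was not counted. Among the members, FOSL1 left the smallest remainder, 2.402%, and its replicate 3 was the highest library in each condition.

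**Figure D4:**
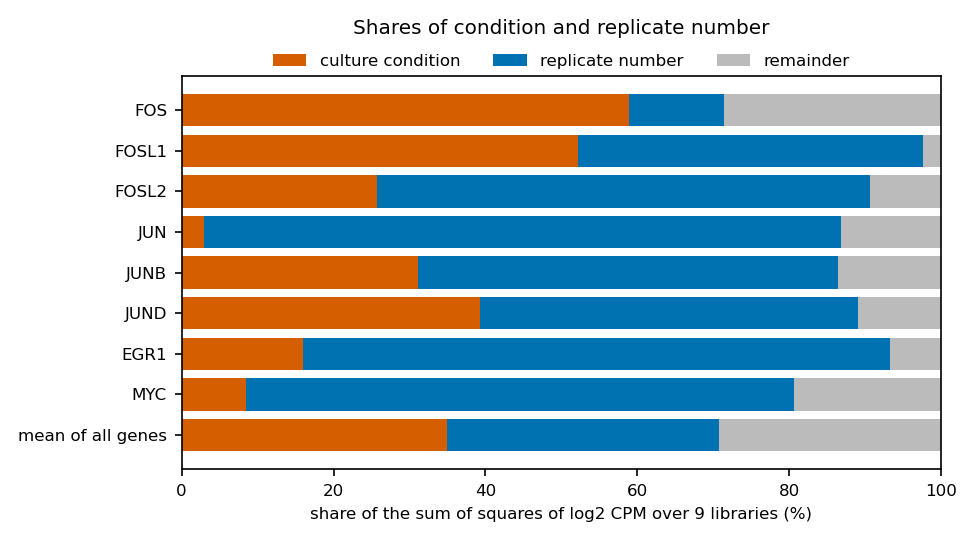
Share (%) of the sum of squares of log2 CPM over the 9 libraries taken by culture condition, replicate number and remainder, for the 8 tested genes and as the mean of 12858 genes. JUN, EGR1 and MYC were mostly taken by the replicate number, and FOS by condition.

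Genes around the factors were read from lists of textbook members, written with earlier results of these data known. The shares of called genes in the lists are thus descriptions. Of the 12 tested genes for other AP-1 and bZIP factors, 0 were called in MAT versus CYST and 1 with the block (8.33%, against 10.6% of all genes), a share below the background. That gene was CREM, a cAMP-responsive factor, at 25.2 ± 10.8 TPM in CYST and 6.36 ± 3.05 in MAT (SD, n = 3), with a Log2FC of -2.03 (edgeR adjusted p = 0.0730, and 0.00488 with the block). ATF4, the stress-response factor, was at 469 ± 98.3 and 342 ± 65.7 TPM and was not called. Of 30 other immediate-early genes, 18 had a positive Log2FC, against 6137 of all 12074 tested genes. Without the block 0 were called, and with it 2 were higher and 3 lower (16.7% called, against 10.6% of all genes). The genes higher with the block were KLF6, a zinc finger factor, at 80.1 ± 14.6 TPM in CYST and 160 ± 41.6 in MAT, and the orphan nuclear receptor NR4A2 at 2.25 ± 0.60 and 6.74 ± 1.72. Those lower were CSRNP1, at 14.2 ± 0.69 and 6.36 ± 0.74 TPM, and the matricellular genes CCN1 and CCN2, which are also targets of YAP and were named after their values were seen. CCN1 was at 384 ± 196 and 169 ± 105 TPM, and CCN2 at 62.6 ± 38.3 and 33.5 ± 23.3 TPM.

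Upstream, none of the 22 tested kinases and SRF-associated factors was called with or without the block. Of these, 17 had a positive Log2FC, against 6137 of all 12074 tested genes (median 0.30, against 0.01 for all genes). RPS6KA1, a kinase activated by ERK, was at 67.0 ± 18.1 TPM in CYST and 103 ± 36.6 in MAT, and ELK3, a ternary complex factor, at 25.05 ± 5.03 and 38.7 ± 16.6. The 5 NAB and EGR1 coregulator genes were likewise not called, with Log2FC between 0.06 and 0.41. NAB2, itself an EGR1 target, was at 3.23 ± 1.82 TPM in CYST and 3.63 ± 0.86 in MAT. None of the 17 tested EGR1 target genes was called with or without the block, and their median Log2FC was 0.21.

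AP-1 target genes were called higher without the block and in both directions with it. Of 35 tested, 4 were called higher and 0 lower in MAT versus CYST (11.4%, against 1.79% of genes), and with the block 8 were higher and 4 lower (34.3% called, against 10.6% of genes). The list holds CD44, LAMA3, LAMB3 and SPP1, which the study names as upregulated by EGF in these libraries. Its share over the background is therefore not independent of the study's results. MMP13, a collagenase, was at 375 to 618 TPM in CYST and 1919 to 3556 in MAT, with a Log2FC of 2.61 (SE 0.30, edgeR adjusted p = 0.0191). AREG, the EGF receptor ligand amphiregulin, was at 6.81 to 24.1 and 46.9 to 104.2 TPM, with a Log2FC of 2.42 (SE 0.43, edgeR adjusted p = 0.0448). LAMA3, a chain of laminin-332, and CD44, the hyaluronan receptor, rose by a Log2FC of 2.04 (edgeR adjusted p = 0.0337) and 1.36 (edgeR adjusted p = 0.0256). The 4 genes lower with the block were FOSL1 itself and 3 proteases, MMP1, MMP3 and MMP9, named after their values were seen. MMP3, or stromelysin, was at 3852 ± 399 TPM in CYST and 1564 ± 490 in MAT (edgeR adjusted p = 0.0619, and 0.00719 with the block), and MMP1, the interstitial collagenase, at 3124 ± 577 and 1566 ± 1184 (edgeR adjusted p = 0.312, and 0.0265 with the block). The gelatinase MMP9 was at 217 ± 53.5 and 87.5 ± 53.4 TPM (edgeR adjusted p = 0.155, and 0.00756 with the block). Of the matrix metalloproteinases called with the block, MMP13 was thus higher and MMP1, MMP3 and MMP9 lower in MAT. MMP13 and CD44 were also called higher without the block with EGF and collagen I together, as the only 2 of the 37 target genes tested between MAT + COL and CYST.

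MYC target genes were mostly lower in UG-LIKE structures, and the MYC transcript was not called. Of 43 tested, 39 had a negative Log2FC, whereas 6137 of all 12074 tested genes had a positive one. Of the 43, 6 were called lower and 0 higher (14.0% called, against 1.79% of genes), and the list median was -0.77 (0.01 for all genes). With the block 24 were lower, against 5.67% of all genes, and 1 was higher, the cyclin CCND2, named after its value was seen. The list holds genes of ribosome production, nucleotide synthesis and DNA replication. The study reports pathways of these processes as downregulated in UG-LIKE structures in these same libraries. The share of this list over the background is therefore not independent of the study's results either. MCM5, a subunit of the replicative helicase, was at 61.3 to 73.7 TPM in CYST and 14.9 to 23.6 in MAT, with a Log2FC of -1.87 (SE 0.20, edgeR adjusted p = 0.0165). PRMT5, an arginine methyltransferase, was at 99.6 ± 17.2 and 40.8 ± 7.29 TPM, with a Log2FC of -1.29 (edgeR adjusted p = 0.0277). DKC1, the pseudouridine synthase of small nucleolar particles, and TFRC, the transferrin receptor, had Log2FC of -1.16 (edgeR adjusted p = 0.0323) and -1.22 (edgeR adjusted p = 0.0448). The other 2 called genes, outside the rule for named genes, were NOP56 and RUVBL2, which act in the assembly of small nucleolar particles. Between MAT + COL and CYST 5 of 43 were called lower (11.6%, against 1.49% of genes) and 0 higher, and between MAT + COL and MAT none was called, with a list median of -0.07.

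Among the 13 tested genes of the MYC and MAX network, 0 were called in MAT versus CYST and 3 were higher with the block (23.1% called, against 10.6% of all genes). MXD1, which competes with MYC for MAX and represses MYC sites, was at 13.6 ± 3.998 TPM in CYST, 43.1 ± 13.5 in MAT and 36.4 ± 9.03 in MAT + COL, with a Log2FC of 1.62 in MAT (SE 0.33, edgeR adjusted p = 0.0540, and 0.0194 with the block). MLXIP, a glucose-sensing partner of MLX, was at 2.60 ± 0.37, 6.56 ± 1.13 and 6.58 ± 0.76 TPM, and MYCBP2 was at 5.26 ± 1.32, 8.86 ± 0.92 and 9.75 ± 1.83 TPM. MXI1, another MAX partner, was at 3.01 ± 0.98, 7.67 ± 5.42 and 12.1 ± 8.51 TPM and passed with the block in MAT + COL versus CYST (edgeR adjusted p = 0.0334). Beside these lists, the 9 tested heat shock and stress genes summed to 5251 to 5754 TPM in CYST and 3859 to 4568 in MAT. HSPH1 and HSPA5 were called lower with the block (22.2% called, against 10.6% of all genes). A positive Log2FC was found for 3 of the 9, against 6137 of all 12074 tested genes. The 3 included DDIT3, at 11.4 ± 1.04 TPM in CYST and 16.9 ± 0.78 in MAT, which was not called. No gene of any list was called in MAT + COL versus MAT with edgeR, where 51 of all 12470 genes had an unadjusted p under 0.05.

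**Figure D5:**
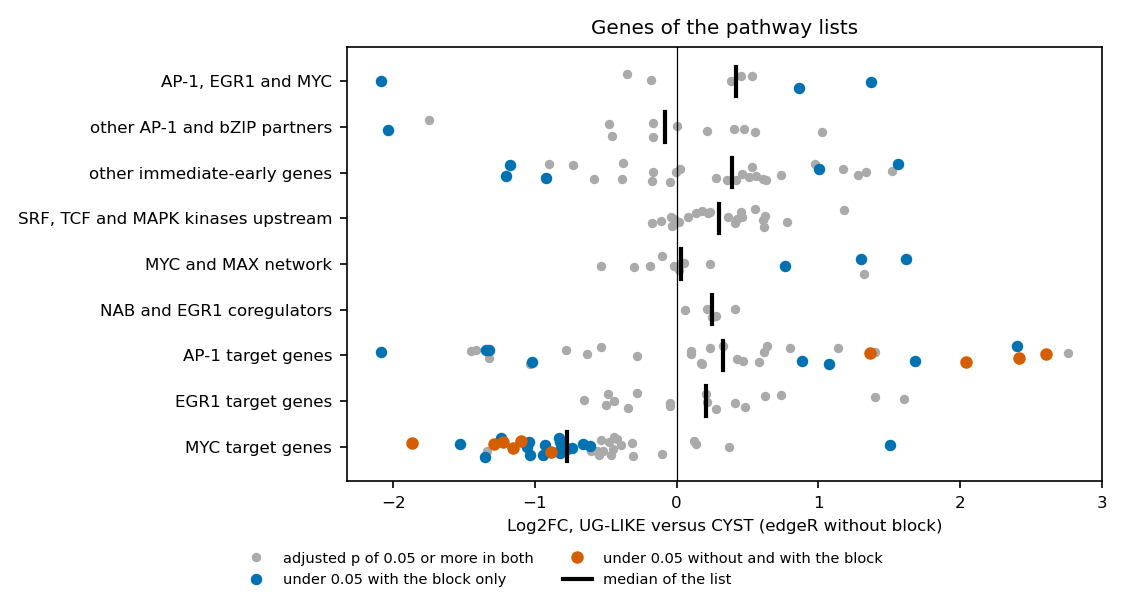
Log2FC in UG-LIKE (MAT) versus CYST of each tested gene of the lists (edgeR without the block), with colour for an adjusted p below 0.05 and a black bar at the median of each list. MYC target genes lie mostly below 0 (median -0.77), and AP-1 target genes spread to both sides (median 0.33).

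The genes whose pattern was most like each factor were found by Pearson's r of log2 CPM over the 9 libraries, among 12857 other genes. As the libraries share replicate numbers and conditions, r is a description. FOS was most like NUCB1 (0.968) and STOM (0.966), and FOSL1 most like TRABD (0.978) and IFRD2 (0.963). FOSL2 was closest to SHC1 (0.969), an adaptor of receptor tyrosine kinases, and CYP1B1 (0.961). JUN was closest to TRIM4 (0.991) and NHLRC1 (0.989), JUNB to KHNYN (0.982) and ACBD3 (0.975), and JUND to IGFBP6 (0.983) and DDX31 (0.981). EGR1 was closest to an unnamed gene (ENSBTAG00000005150, 0.964) and FLNC (0.963), and MYC to PSMB9 (0.967) and ACRBP (0.9502). None of the 8 tested factors was among the 2 closest genes of another.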

How the data were processed

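Reads were trimmed by the authors and aligned to ARS-UCD2.0 in CLC Genomics Workbench 25.0.1 at default settings, and raw counts of reads per gene were deposited. The TPM values were also deposited by the authors and were used for levels only. The annotation release is not given in the sources used here. Groups and replicate numbers came from the sample titles (the library names in the labels are numbered otherwise). Counts were tested in R 4.3.3 with edgeR 4.0.16: filterByExpr with a minimum count of 10, TMM, glmQLFit and glmQLFTest on the 6 libraries compared. SE was the Log2FC divided by the square root of F.

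A second fit held the replicate number as a block, since libraries of 1 number deviated together (correlation across genes of their deviations) in every pair, at 0.330, 0.437 and 0.396 for MAT with CYST, 0.471, 0.613 and 0.687 for MAT + COL with MAT and 0.278, 0.350 and 0.347 for MAT + COL with CYST. The study speaks of individuals for the MAT and MAT + COL libraries, but no source used here ties a library to an animal, so p-values measure the spread between these samples, which may be technical. Counts are of amplified reads without molecular identifiers, and any floor of 3 counts covers counting error only.

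Alternatives were DESeq2 1.42.0, the likelihood ratio test, RLE factors, no filter, all 9 libraries, limma 3.58.1 on log2(TPM + 1) and log2(TPM + 0.1), and leaving out each library. The 9 genes, the lists and the rule for named genes (of each list, up to 4 with the smallest p in MAT versus CYST, and the 2 genes most like each factor) were chosen with earlier results of these data known. Of the lists, MMP10, SPRR1A, HSPD1, PIFO and HSPA1A were not matched by symbol and were not analysed here. Figures were drawn with matplotlib 3.10.9. One gene that the rule names is not reported here.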

Additional observations from a re-analysis of the deposited data

How the results depend on the processing

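In UG-LIKE (MAT) versus CYST, no member was called by edgeR's quasi-likelihood test, with RLE factors, without a filter on low counts, with all 9 libraries or by limma on either TPM scale. The replicate block called 3 (FOSL1, JUNB and JUND), as did the block with all 9 libraries, DESeq2 called 2 (FOSL1 and JUND) and the likelihood ratio test called 1 (FOSL1). Over all genes these settings called 1277, 2118, 1217 and 957, against 216 without the block and 580 with all 9 libraries. In MAT + COL versus CYST the block called 1 (FOSL1), with 6 or with 9 libraries, and every other setting that kept all libraries 0. Over all genes the count there was 186, and 658 with the block, 2035 with the block and all 9 libraries, 1409 by DESeq2, 1004 by the likelihood ratio test and 601 with all 9 libraries. In MAT + COL versus MAT every setting called 0 of the 8, or of 9 where FOSB was tested too, and 0 of all genes with all 6 or 9 libraries. The cause of these differences was not tested.

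Leaving out each library without the block called 0 to 0 members in all 3 comparisons, and leaving out both libraries of a replicate number with the block called 0 to 2 in MAT versus CYST, 0 to 0 in MAT + COL versus MAT and 0 to 2 in MAT + COL versus CYST. Direction held over all settings for FOS, FOSL1, FOSL2, JUNB and JUND in MAT versus CYST, for JUNB and EGR1 in MAT + COL versus MAT and for FOS, FOSL1, FOSL2 and JUND in MAT + COL versus CYST. With single libraries left out, Log2FC in MAT versus CYST ran from -0.13 to 1.01 for JUN, -0.66 to 0.025 for EGR1 and -0.31 to 0.042 for MYC. For MAT + COL versus MAT it ran from -0.042 to 0.37 for FOS, -0.36 to 0.92 for FOSL1, -0.32 to 0.35 for FOSL2, -1.49 to 0.035 for JUN, -1.27 to 0.049 for JUND and -0.19 to 0.093 for MYC. For MAT + COL versus CYST it ran from -1.09 to 0.52 for JUN, -0.050 to 0.60 for JUNB, -0.18 to 0.47 for EGR1 and -0.37 to 0.011 for MYC. With a replicate number left out of the blocked fit, MYC ran from -0.28 to 0.066 in MAT versus CYST, MYC from -0.20 to 0.030 and FOSL2 from -0.096 to 0.12 in MAT + COL versus MAT, and JUN from -0.58 to 0.58 in MAT + COL versus CYST. Between MAT + COL and MAT, limma turned the sign of FOSL2 and MYC, to 0.056 and 0.0073 on log2(TPM + 1) and to 0.059 and 0.0072 on log2(TPM + 0.1). FOSB, at 1 to 19 reads per library, did not pass the filter on low counts in any comparison with all libraries. In MAT + COL versus MAT it passed when MAT replicate 3 or any single MAT + COL library was left out, and was not called.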
